A study of Gallus gallus with 16 samples.

Results

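The fibroblast growth factor (FGF) ligands, their receptors and families of genes, some induced by FGF signalling against itself, were followed through growing chicken feathers. They were taken from the deposited expression tables by name, as every FGF, FGFR, FGFBP, SPRY, SPRED, DUSP and ETV symbol together with BFGF, the older symbol of FGF2. The names matched 54 of 15979 genes listed in either feather type, of which 53 were listed in both and FGF19 only in remiges. The 54 comprised 15 secreted ligands, 3 intracellular FGFs, 5 receptors, 2 FGF-binding proteins, 6 Sprouty and Spred inhibitors, 19 dual specificity phosphatases and 4 ETS transcription factors. The phosphatases and ETS factors were taken by their DUSP and ETV symbols, so not all of them are genes that FGF signalling induces against itself. Genes listed under older symbols (MKP3, ER81 and TEL) fell outside the name rule. RNA was sequenced from the epithelium and the mesenchyme, here called the pulp, of White leghorn feather follicles, in 8 groups with 2 libraries each, labelled batch I and batch II. The groups were the lateral side of primary remiges (wing flight feathers), which makes the narrow vane, and the medial side, which makes the wide vane, and dorsal plumes (narrow vanes) and breast plumes (wide vanes), each as epithelium and as pulp. No group carried a treatment or an allele, and the age of the birds is not given in the sources used here. Each remige library pooled 3 proximal follicles split into the lateral and the medial portion, and each plume library pooled 25 proximal follicles. The study calls the batches biological replicates, and values are given in the order batch I, then batch II.

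FGFs are secreted proteins that bind receptor tyrosine kinases on neighbouring cells together with heparan sulfate, and the receptors act mainly through the RAS-ERK cascade. Active ERK switches on the transcription factors of the ETV4 and ETV5 group, and also its own brakes: Sprouty and Spred proteins, which hold back the cascade, and dual specificity phosphatases, several of which remove phosphate from ERK or from the related kinases JNK and p38. In skin appendages FGF7 and FGF10 are typically made by mesenchyme and are read by a splice form of FGFR2 on the epithelium, and FGF signals take part in bud formation and branching of feathers.

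Levels are given in TPM, that is, the deposited RPKM of a library rescaled to sum to 1000000, so that they are per gene length. Differences are log2 fold changes of TPM + 1 with the standard error (SE), and a gene was called different where the limma p-value, adjusted by the Benjamini-Hochberg method over all genes tested, was under 0.05. The test took every gene whose mean reached 1 TPM in any of a feather type's 4 groups. These were 12954 genes in remiges, 40 of the members among them, and 13246 genes in plumes with 46 members. Remiges and plumes were normalized separately, so their levels are set side by side without a test. Depth per library was, in M alignments (M, 1000000), 42.2 to 45.8 for remige epithelium, 29.4 to 37.0 for remige pulp, 32.6 to 37.7 for plume epithelium and 23.4 to 26.1 for plume pulp. The read counts behind the RPKM are unknown, so error is judged from how far the 2 libraries of a group lie apart. For the SE and p-values this spread was pooled per gene over the 4 groups of a feather type, both tissues together. It was then moderated across genes, so an SE can reflect libraries outside the 2 groups compared. In remiges the batch differences of the lateral and the medial side correlated across genes (r = 0.805 in epithelium and 0.731 in pulp). The 4 libraries of a remige tissue are thus not 4 independent values. The SE and p-values of remige epithelium against pulp can therefore be too small. The tissue labels held against marker genes: 12 of 13 keratinocyte markers were higher and 14 of 14 fibroblast or mesenchymal markers were lower in epithelium than in pulp, in both feather types. The pulp still held keratinocyte transcripts, with a summed marker level of 944 to 1718 TPM over the 8 pulp libraries, against 4749 to 6804 TPM over the 8 epithelium libraries. Since the samples are bulk tissue, fewer cells of a type and less RNA per cell cannot be told apart.

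Among the secreted ligands, FGF7 and FGF10 stood at high levels and almost entirely in the pulp. FGF7, a mitogen of epithelial cells, had 0.131 and 0.136 TPM in lateral and 0.123 and 0.0434 TPM in medial remige epithelium, against 110.5 and 59.4 TPM in lateral and 78.4 and 80.1 TPM in medial remige pulp. In plumes FGF7 had 0.214 and 0.135 TPM in dorsal and 0.0338 and 0.137 TPM in breast epithelium, against 51.8 and 46.5 TPM in dorsal and 59.1 and 44.3 TPM in breast pulp. Every epithelium library was thus below every pulp library, with log2 fold change -6.19, SE 0.20, adjusted p = 9.54e-07 in remiges and log2 fold change -5.50, SE 0.12, adjusted p = 2.38e-09 in plumes for epithelium over pulp. No other member differed as much between the tissues in either feather type. The log2(TPM + 1) scale understates these differences, as the epithelium levels lie far under 1 TPM. FGF10, which belongs to the same subfamily, was listed at 0 in 5 of the 8 epithelium libraries and at most at 0.376 TPM in the others. In pulp FGF10 ranged over 13.1 to 42.4 TPM in remiges and 3.28 to 32.4 TPM in plumes, and the difference between epithelium and pulp was called in both (log2 fold change -4.63, SE 0.17, adjusted p = 1.38e-06 in remiges and log2 fold change -3.42, SE 0.13, adjusted p = 3.62e-08 in plumes). FGF22, the third expressed member of that subfamily, ran the other way. It had 9.16 to 16.9 TPM in remige epithelium against 1.47 to 4.05 TPM in remige pulp (log2 fold change 1.91, SE 0.26, adjusted p = 6.28e-04). FGF22 had 7.74 to 16.2 TPM in plume epithelium against 1.83 to 3.15 TPM in plume pulp (log2 fold change 1.70, SE 0.20, adjusted p = 4.39e-05). The tissues did not overlap in FGF22 in either feather type.

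**Figure D1:**
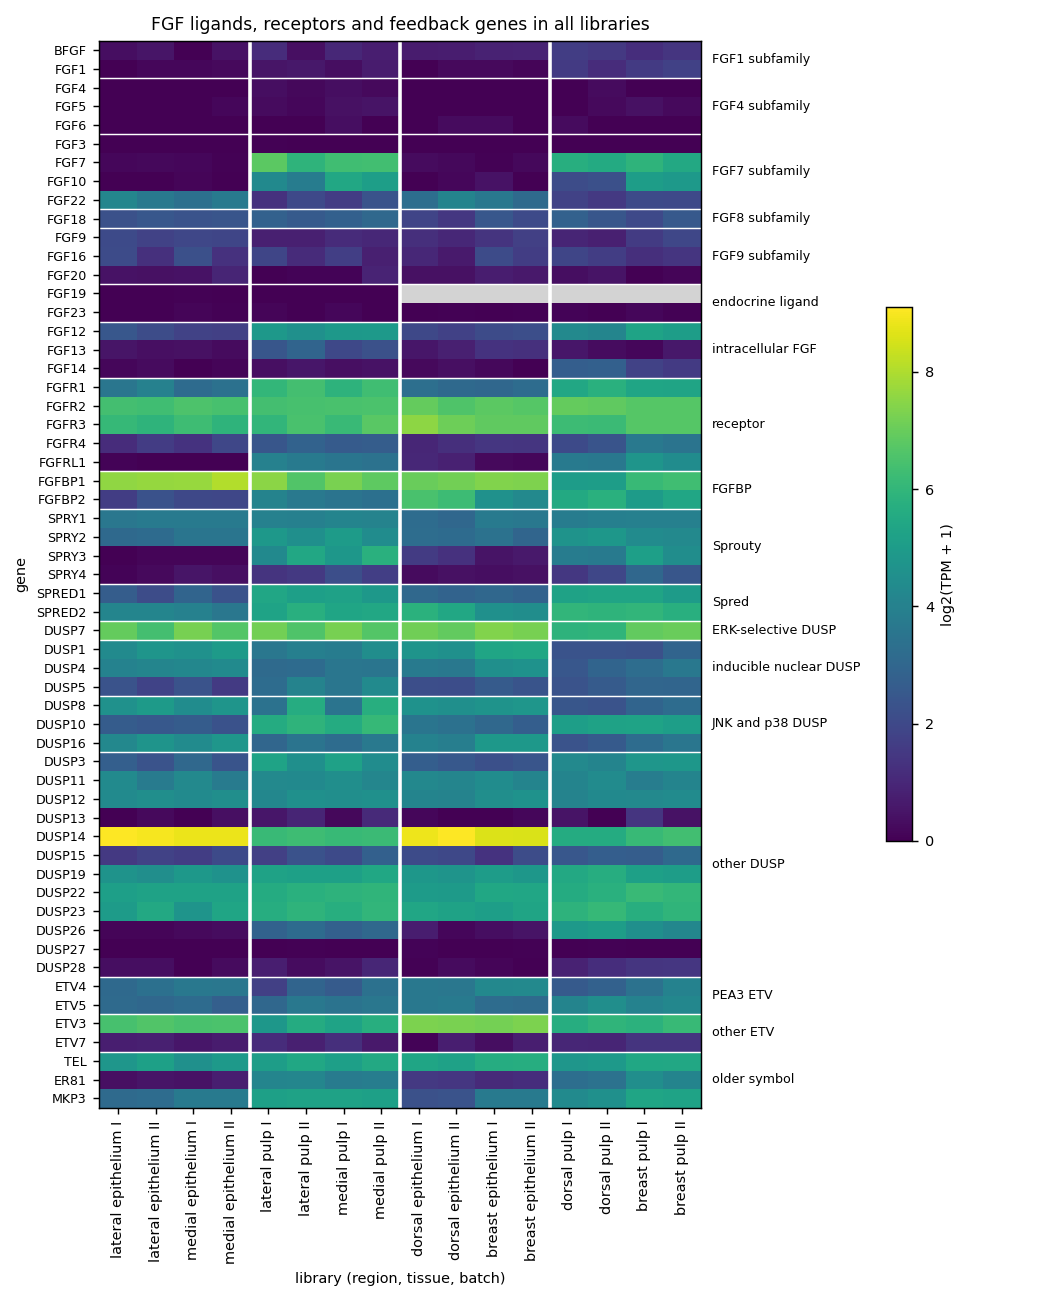
Level of each member in the 16 libraries, as log2(TPM + 1) in colour, with genes in rows grouped by class and libraries in columns (region, tissue, batch). Grey marks FGF19, which was listed in remiges only, and the last 3 rows are genes listed under older symbols; FGF7 and FGF10 are bright in pulp columns and dark in epithelium columns, and DUSP14 runs the opposite way, with 382 to 548 TPM in plume epithelium.

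The other ligands were expressed at low levels. FGF18, of the FGF8 subfamily, had 3.77 to 4.48 TPM in remige epithelium and 4.92 to 7.49 TPM in remige pulp, and 1.80 to 4.50 TPM in plume epithelium and 3.06 to 6.07 TPM in plume pulp. It was called lower in epithelium in both feather types (log2 fold change -0.45, SE 0.14, adjusted p = 0.0298 in remiges and log2 fold change -0.49, SE 0.18, adjusted p = 0.0311 in plumes), and both directions turned round under quantile normalization. FGF9 had 2.45 to 3.10 TPM in remige epithelium against 0.731 to 1.15 TPM in remige pulp (log2 fold change 0.98, SE 0.13, adjusted p = 6.13e-04), and was not called in plumes (log2 fold change 0.02, SE 0.14, adjusted p = 0.916). FGF16, its relative, had 1.41 to 3.62 TPM in remige epithelium and 0.749 to 2.75 TPM in remige pulp. FGF16 had 0.573 to 3.24 TPM in plume epithelium and 1.34 to 2.70 TPM in plume pulp, and the tissues were called different in neither feather type without the batch block. With the block FGF16 was called higher in remige epithelium (adjusted p = 0.0301, against 0.435 without it). BFGF (FGF2) had 0.608 and 0.646 TPM in dorsal and 0.842 and 0.855 TPM in breast epithelium, against 2.15 and 1.85 TPM in dorsal and 1.28 and 1.64 TPM in breast pulp (log2 fold change -0.65, SE 0.11, adjusted p = 5.50e-04), a direction that quantile normalization turned round. The highest BFGF values in remiges were 0.413 TPM for epithelium and 1.21 TPM for pulp, too low for the test. FGF1 was lower in plume epithelium, with 0 to 0.170 TPM against 1.21 to 2.36 TPM in plume pulp (log2 fold change -1.36, SE 0.13, adjusted p = 1.49e-05). In no group did 8 of the members reach a mean of 1 TPM, namely FGF3, FGF4, FGF5, FGF6, FGF19, FGF20, FGF23 and DUSP27. FGF20, a ligand needed by early feather placodes in chicken, was the highest of these. FGF20 had 0.373 and 0.323 TPM in lateral and 0.350 and 0.926 TPM in medial epithelium, against 0 and 0.0608 TPM in lateral and 0.0523 and 0.879 TPM in medial pulp. In plumes FGF20 had 0.339 and 0.320 TPM in dorsal and 0.640 and 0.525 TPM in breast epithelium against 0.261 and 0.408 TPM in dorsal and 0 and 0.0768 TPM in breast pulp. None of these 8 was tested.

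The intracellular FGFs, which are not secreted and are known as partners of voltage-gated sodium channels, were for the most part pulp transcripts. FGF12 had 2.29 to 4.52 TPM in remige epithelium against 22.4 to 29.7 TPM in remige pulp (log2 fold change -2.77, SE 0.14, adjusted p = 5.24e-06). FGF12 had 2.42 to 3.53 TPM in plume epithelium against 16.8 to 37.9 TPM in plume pulp (log2 fold change -2.70, SE 0.10, adjusted p = 2.84e-08). FGF14 reached the minimum only in plumes, where it had 0 to 0.304 TPM in epithelium against 1.90 to 5.89 TPM in pulp (log2 fold change -2.01, SE 0.12, adjusted p = 4.56e-07). FGF13 was the single member called in opposite directions in the 2 feather types. It had 0.208 to 0.419 TPM in remige epithelium against 2.89 to 6.64 TPM in remige pulp (log2 fold change -2.01, SE 0.17, adjusted p = 6.43e-05), but 0.457 to 1.51 TPM in plume epithelium against 0.108 to 0.518 TPM in plume pulp (log2 fold change 0.59, SE 0.14, adjusted p = 0.00448). In plumes FGF13 entered the test only through breast epithelium, with a mean of 1.47 TPM against 0.606 TPM in dorsal epithelium. The plume tissues overlapped. The difference between feather types was not tested.

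Of the receptors, FGFR2 and FGFR3 were high in both tissues, whereas FGFR1, FGFR4 and FGFRL1 were lower in epithelium. Under quantile normalization the FGFR4 difference in remiges all but vanished, with its sign changed. FGFR2 had 81.6 and 77.7 TPM in lateral and 94.0 and 86.3 TPM in medial epithelium against 81.8 and 87.0 TPM in lateral and 89.0 and 91.1 TPM in medial pulp. In plumes FGFR2 had 123 and 96.3 TPM in dorsal and 112 and 102 TPM in breast epithelium against 121 and 117 TPM in dorsal and 103 and 103 TPM in breast pulp. The tissues overlapped and FGFR2 was called in no comparison, with log2 fold change -0.04, SE 0.08, adjusted p = 0.664 in remiges and log2 fold change -0.04, SE 0.08, adjusted p = 0.687 in plumes for epithelium over pulp. The tables give 1 value per gene, so the splice forms of the receptors, which differ in the ligands they bind, were not separated. FGFR1 had 11 and 14.9 TPM in lateral and 8.08 and 9.41 TPM in medial epithelium against 63.5 and 82.3 TPM in lateral and 57.9 and 77.7 TPM in medial pulp (log2 fold change -2.61, SE 0.16, adjusted p = 1.43e-05). In plumes FGFR1 had 8.92 and 7.54 TPM in dorsal and 7.21 and 8.35 TPM in breast epithelium against 42.7 and 54 TPM in dorsal and 39.9 and 38.6 TPM in breast pulp (log2 fold change -2.31, SE 0.10, adjusted p = 8.93e-08). FGFRL1, a receptor without the kinase domain, had 0.0543 and 0.0235 TPM in lateral and 0 and 0.0225 TPM in medial epithelium, against 9.86 to 14.8 TPM in remige pulp (log2 fold change -3.64, SE 0.13, adjusted p = 1.21e-06). FGFRL1 had 0.107 to 1.04 TPM in plume epithelium against 11.6 to 25.6 TPM in plume pulp (log2 fold change -3.57, SE 0.12, adjusted p = 1.11e-08). FGFR3 was higher in plume epithelium, with 115 to 186 TPM against 73.4 to 103 TPM in plume pulp (log2 fold change 0.63, SE 0.09, adjusted p = 2.42e-04), and its tissues did not overlap. In remiges FGFR3 had 66.7 and 59.6 TPM in lateral and 75.6 and 59.9 TPM in medial epithelium, against 62.1 and 88.9 TPM in lateral and 70.8 and 109 TPM in medial pulp, which was not called (log2 fold change -0.31, SE 0.18, adjusted p = 0.189). FGFR4 was the lowest of the kinase receptors, with 1.25 to 2.84 TPM in remige epithelium against 4.35 to 6.20 TPM in remige pulp (log2 fold change -1.13, SE 0.21, adjusted p = 0.00283), a difference that quantile normalization all but removed. FGFR4 had 0.990 to 1.69 TPM in plume epithelium against 3.10 to 11.9 TPM in plume pulp (log2 fold change -1.63, SE 0.12, adjusted p = 2.43e-06).

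FGFBP1, which frees FGFs from the matrix, was higher in epithelium in both feather types. Its level was 192 to 266 TPM in remige epithelium against 97.0 to 181 TPM in remige pulp (log2 fold change 0.70, SE 0.22, adjusted p = 0.0265). In batch I it had 192 TPM in lateral and 205 TPM in medial epithelium, against 181 and 152 TPM in pulp. In batch II it had 203 and 266 TPM in epithelium against 97.0 and 113 TPM in pulp, so the difference lay mostly in batch II. FGFBP1 had 129 to 165 TPM in plume epithelium against 31.4 to 77.7 TPM in plume pulp (log2 fold change 1.60, SE 0.06, adjusted p = 4.16e-08). FGFBP2 had 2.18 to 3.95 TPM in remige epithelium against 9.15 to 15.9 TPM in remige pulp (log2 fold change -1.66, SE 0.19, adjusted p = 2.66e-04). In plumes FGFBP2 was not called between the tissues. Its mean there was 82.0 TPM in dorsal epithelium against 49.9 TPM in dorsal pulp, but 20.9 TPM in breast epithelium against 35.9 TPM in breast pulp.

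All 6 Sprouty and Spred genes measured were lower in epithelium than in pulp in both feather types (SPRY1 in remiges turned round under quantile normalization), where 44.9% of all genes in remiges and 47.0% in plumes were lower. The median log2 fold change over the 6 was -1.43 in remiges and -1.60 in plumes. SPRY3 had 0 to 0.0975 TPM in remige epithelium against 19.1 to 53.4 TPM in remige pulp (log2 fold change -5.00, SE 0.31, adjusted p = 1.40e-05). SPRY3 had 0.401 to 1.98 TPM in plume epithelium against 12.5 to 33.9 TPM in plume pulp (log2 fold change -3.29, SE 0.16, adjusted p = 1.30e-07). SPRY2 had 7.70 and 8.07 TPM in lateral and 10.7 and 10.5 TPM in medial epithelium against 27.6 and 22.4 TPM in lateral and 30.5 and 20.4 TPM in medial pulp (log2 fold change -1.35, SE 0.16, adjusted p = 2.98e-04). In plumes SPRY2 had 8.44 and 8.11 TPM in dorsal and 9.71 and 6.73 TPM in breast epithelium against 24.6 and 27.1 TPM in dorsal and 20.1 and 18.3 TPM in breast pulp (log2 fold change -1.34, SE 0.12, adjusted p = 7.08e-06). SPRY4 had 0.0517 and 0.179 TPM in lateral and 0.437 and 0.300 TPM in medial epithelium, and 0.211 and 0.333 TPM in dorsal and 0.266 and 0.338 TPM in breast epithelium, all under every pulp library. The 6 genes shared a direction, but not a size. SPRY1 differed least, with 11.2 and 12.6 TPM in lateral and 12.5 and 12.2 TPM in medial epithelium against 15.0 and 14.4 TPM in lateral and 16 and 16 TPM in medial pulp (log2 fold change -0.32, SE 0.10, adjusted p = 0.0307), and this remige difference turned round under quantile normalization. SPRED1 had 3.38 to 6.63 TPM in remige epithelium against 27.7 to 41.2 TPM in remige pulp (log2 fold change -2.64, SE 0.21, adjusted p = 5.11e-05). SPRED1 had 6.26 to 7.38 TPM in plume epithelium against 30.9 to 38.5 TPM in plume pulp (log2 fold change -2.23, SE 0.10, adjusted p = 9.56e-08).

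The phosphatases went both ways. Of 16 tested in remiges, 4 were higher and 7 lower in epithelium (18.7% and 44.9% of all genes), and of 18 tested in plumes, 6 were higher and 9 lower (30.2% and 47.0% of all genes), of which DUSP5 and DUSP15 turned round in plumes under quantile normalization. DUSP14, a small atypical member of the family, was the most abundant of all members, with 450.4 to 535 TPM in remige epithelium against 68.3 to 77.0 TPM in remige pulp (log2 fold change 2.74, SE 0.07, adjusted p = 4.45e-07). DUSP14 had 382 to 548 TPM in plume epithelium against 47.0 to 79.8 TPM in plume pulp (log2 fold change 2.88, SE 0.07, adjusted p = 3.85e-09). DUSP1, an inducible nuclear phosphatase of ERK, JNK and p38, had 22.7 to 41.6 TPM in plume epithelium against 3.73 to 6.56 TPM in plume pulp (log2 fold change 2.56, SE 0.14, adjusted p = 3.52e-07). DUSP1 had 19.7 to 29.9 TPM in remige epithelium against 11.2 to 21.1 TPM in remige pulp (log2 fold change 0.71, SE 0.20, adjusted p = 0.0173). DUSP16 and DUSP4 were higher in epithelium in both feather types as well, with log2 fold changes of 1.18 and 0.82 in remiges and of 1.49 and 1.07 in plumes. DUSP8 was higher in plume epithelium, with 22.3 to 26.2 TPM against 4.06 to 8.26 TPM in plume pulp (log2 fold change 1.93, SE 0.10, adjusted p = 1.97e-07). Epithelial phosphatases thus included nuclear and JNK or p38 directed ones.

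On the pulp side, DUSP10, which acts on JNK and p38, had 3.91 to 5.32 TPM in remige epithelium against 47.8 to 67.8 TPM in remige pulp (log2 fold change -3.29, SE 0.16, adjusted p = 5.32e-06). DUSP10 had 5.57 to 10.7 TPM in plume epithelium against 32.9 to 37.6 TPM in plume pulp (log2 fold change -2.00, SE 0.11, adjusted p = 2.74e-07). DUSP26 had 0.127 to 0.672 TPM in plume epithelium against 17.6 to 32.8 TPM in plume pulp (log2 fold change -4.25, SE 0.15, adjusted p = 1.96e-08). DUSP26 had 0.0855 to 0.245 TPM in remige epithelium against 5.98 to 8.01 TPM in remige pulp (log2 fold change -2.77, SE 0.15, adjusted p = 6.66e-06). Of the others, DUSP3, DUSP19, DUSP22 and DUSP23 were lower in epithelium in both feather types. DUSP3 had 3.69 to 5.51 TPM in plume epithelium against 16 to 26.9 TPM in plume pulp, and DUSP23 had 33.5 to 41.3 TPM in plume epithelium against 51.5 to 67.6 TPM in plume pulp. DUSP28 was lower in plume epithelium, with 0 to 0.206 TPM against 0.841 to 1.71 TPM in plume pulp, and DUSP7, not called in remiges, was higher there, with 121 to 164 TPM against 57.9 to 129.8 TPM in plume pulp. DUSP11 and DUSP12 were called in neither feather type, with log2 fold changes of -0.27 and -0.04 in remiges and 0.11 and 0.07 in plumes. MKP3, an ERK phosphatase, fell outside the name rule. It is taken here as the older name of DUSP6, which the RefSeq table used does not pair with it. MKP3 was lower in epithelium in both feather types (log2 fold change -1.76, SE 0.09, adjusted p = 6.83e-06 in remiges and log2 fold change -1.86, SE 0.09, adjusted p = 1.09e-07 in plumes).

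The ETS factors went both ways. ETV3, a repressor of the ETS family, was higher in epithelium, with 85.7 to 97.1 TPM in remige epithelium against 26.8 to 51.7 TPM in remige pulp (log2 fold change 1.17, SE 0.20, adjusted p = 0.00188). ETV3 had 146 to 159 TPM in plume epithelium against 50.3 to 69.1 TPM in plume pulp (log2 fold change 1.36, SE 0.09, adjusted p = 7.48e-07). ETV4 was higher in plume epithelium (log2 fold change 0.73, SE 0.14, adjusted p = 0.00119), and in remiges only when batch was blocked (adjusted p = 0.0164, against 0.0637 without it). ETV5 was lower in plume epithelium, with 11.5 and 12.2 TPM in dorsal and 8.37 and 7.75 TPM in breast epithelium against 16.2 and 21.4 TPM in dorsal and 15.3 and 17.5 TPM in breast pulp (log2 fold change -0.78, SE 0.11, adjusted p = 1.80e-04). In remiges ETV5 had 7.93 and 7.30 TPM in lateral and 7.97 and 5.73 TPM in medial epithelium against 7.24 and 11.5 TPM in lateral and 9.92 and 11.3 TPM in medial pulp, which was not called (log2 fold change -0.41, SE 0.18, adjusted p = 0.0907). The closely related ETV4 and ETV5 thus lay on opposite sides in plumes. ETV7 was lower in plume epithelium, with 0.0732 to 0.702 TPM against 0.917 to 1.59 TPM in plume pulp (log2 fold change -0.67, SE 0.17, adjusted p = 0.00520), a direction that quantile normalization turned round. ER81, which RefSeq gives as a synonym of ETV1 and which fell outside the name rule, was lower in epithelium in both feather types (log2 fold change -3.46, SE 0.14, adjusted p = 1.86e-06 in remiges and log2 fold change -2.53, SE 0.12, adjusted p = 1.19e-07 in plumes). TEL, matched to ETV6 in RefSeq, fell outside it as well. It was called higher in plume epithelium than in plume pulp, and in remiges only with the batch block, as lower. Between the tracts TEL was lower in dorsal than in breast plumes in both tissues.

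**Figure D2:**
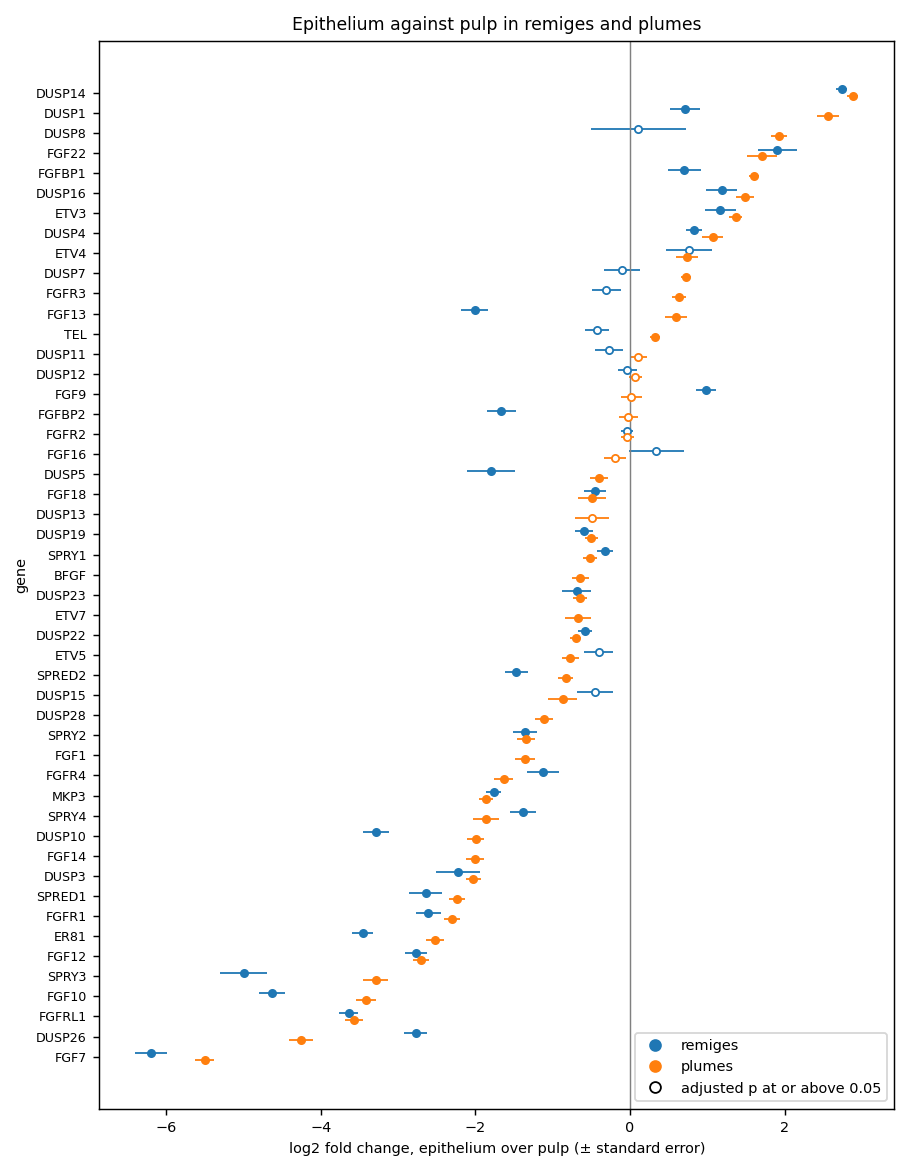
Log2 fold change of epithelium over pulp with its standard error for each member tested and for MKP3, ER81 and TEL, in remiges (blue) and plumes (orange), ordered by the plume value; filled points were called at an adjusted p under 0.05. FGF7 lies lowest in both feather types, at -6.19 and -5.50, and DUSP14 highest, at 2.74 and 2.88.

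Counted over all members, remige epithelium had 8 of 40 higher and 22 lower than remige pulp, where 18.7% and 44.9% of all genes tested were called in these directions. In plumes 12 of 46 were higher and 27 lower, against 30.2% and 47.0% of all genes tested. Altogether 75% of the members were called in remiges and 84.8% in plumes, against 63.6% and 77.2% of all genes, so the members' share was not far from the background. In both feather types 28 of the 40 members tested in both were called (70%, against 57.8% of all genes). Of these, 7 were higher in epithelium in both (17.5% of the 40, against 17.4% of all genes) and 20 lower (50% against 39.1%), with FGF13 as the exception. Quantile normalization changed the split to 14 higher and 16 lower in remiges (37.2% and 27.3% of all genes) and to 18 higher and 21 lower in plumes (46.2% and 34.4% of all genes). Under it the median log2 fold change of all genes was 0.17 in remiges and 0.15 in plumes, against -0.35 and -0.18 in TPM. The members that changed sign were FGF18, FGFR4 and SPRY1 in remiges and BFGF, DUSP15, DUSP5, ETV7 and FGF18 in plumes. With the batch as a block 33 members were called in remiges (77.8% of all genes) and 40 in plumes (78.3%). DUSP15 (adjusted p = 0.0156), FGF16 (0.0301) and, as given above, ETV4 were called in remiges under the block alone, and DUSP13 (0.0426) in plumes.

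The comparison of the lateral with the medial side asks which genes differ between the narrow and the wide vane of the same feather. In pulp, FGF10 was the member that differed most, and no member was called. FGF10 had 19.0 and 13.1 TPM on the lateral side against 42.4 and 32.9 TPM on the medial side, so both lateral libraries lay below both medial ones, and its mean was 2.35-fold lower. The log2 fold change was -1.19 (SE 0.24, unadjusted p = 0.00185). Its adjusted p was 0.312, and 0.0798 in the fit that blocks on batch. The study listed FGF10 from these libraries by a screen for the same direction in remiges and plumes. Its direction in either feather type is thus not independent evidence. By in situ hybridization the study described the FGF10 pattern as diffuse. Of the 40 members tested, 0 were called in pulp (limma; 2 at an unadjusted p under 0.05), as were 0% of all 12954 genes (468 at an unadjusted p under 0.05). Blocking on batch also gave 0 members, against 0.278% of all genes. With the block 1062 genes had an unadjusted p under 0.05. Batch differences of the 2 sides correlated across genes (r = 0.731 in pulp). The fit without the block, from which the SE here come, leaves that shared part in the spread. The other member at an unadjusted p under 0.05 was DUSP4, an inducible nuclear phosphatase, with 7.77 and 8.18 TPM in lateral against 10.8 and 10.7 TPM in medial pulp (log2 fold change -0.38, SE 0.15, unadjusted p = 0.0387). SPRY4, a Sprouty, had 1.57 and 1.87 TPM in lateral against 3.57 and 2.20 TPM in medial pulp, with no overlap either (log2 fold change -0.49, SE 0.24). FGFRL1 had 14.8 and 12.5 TPM in lateral against 10.5 and 9.86 TPM in medial pulp, again without overlap but with the lateral side on top (log2 fold change 0.39, SE 0.18). In all, the libraries of the sides did not overlap in 3 higher and 8 lower members, where 9.22% and 12.4% of all genes did so in these directions. Summed keratinocyte markers were 1562 and 1348 TPM in lateral against 1718 and 1453 TPM in medial pulp, and 10 of the 13 markers had a log2 fold change under 0. The median over the 13 was -0.58, and 7 were lower and 0 higher without overlap. By limma 0 of them were called, and 2 were called lower with the batch block. Summed endothelial markers were 744 and 976 TPM in lateral against 911 and 1029 TPM in medial pulp (9 of 10 under 0), erythroid markers 345 and 910.0 TPM in lateral against 524 and 1348 TPM in medial pulp (3 of 3 under 0) and smooth muscle or pericyte markers 405 and 312 TPM in lateral against 292 and 359 TPM in medial pulp (3 of 4 above 0). The part of these cell types in the members' values was not tested.

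Several members split by batch rather than by side in remige pulp. DUSP8, a phosphatase of JNK and p38, had 9.72 and 48.9 TPM in lateral and 10.5 and 51.1 TPM in medial pulp, so that both batch II libraries were high and both batch I libraries low. SPRY3 had 19.1 and 43.1 TPM in lateral and 27.3 and 53.4 TPM in medial pulp, and was likewise higher in batch II on both sides. DUSP3 went the other way, with 37.7 and 22.1 TPM in lateral and 35.6 and 20.4 TPM in medial pulp. Summed leukocyte markers were lower in batch II, with 2997 and 1816 TPM in lateral and 2911 and 1481 TPM in medial pulp, and summed erythroid markers higher, with 345 and 910.0 TPM in lateral and 524 and 1348 TPM in medial pulp. The early response gene JUN was higher in batch II as well, with 129 and 591 TPM in lateral and 123 and 607 TPM in medial pulp, as were FOS (10.1 and 31.9 TPM in lateral and 12.2 and 56.3 TPM in medial pulp) and EGR1 (40.0 and 114 TPM in lateral and 53.3 and 202 TPM in medial pulp). The part of these genes and cell types in the batch differences was not tested. Both batch I libraries also have row names without a barcode or lane, unlike the rest.

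In remige epithelium 0 of 40 members were called between the sides (limma; 1 at an unadjusted p under 0.05, and 0 called with the batch block), against 0.00772% of all genes. The member at an unadjusted p under 0.05 was FGF12, with 4.52 and 3.36 TPM in lateral against 2.48 and 2.29 TPM in medial epithelium (log2 fold change 0.54, SE 0.20). The sides did not overlap in 6 higher and 7 lower members, where 11.5% and 15.2% of all genes did so. Among the lower ones were the PEA3 factor ETV4, with 7.72 and 9.31 TPM in lateral against 11.6 and 11.1 TPM in medial epithelium (log2 fold change -0.38, SE 0.43), and SPRY2 (log2 fold change -0.38, SE 0.22). MKP3 had 7.82 and 8.19 TPM in lateral against 12.2 and 12 TPM in medial epithelium (log2 fold change -0.54, SE 0.13, adjusted p = 0.903). The 2 libraries of a side lay close together in MKP3, but the difference was not called, with or without the batch block. The SE here come from the fit without the block, and batch differences of the sides correlated across genes with r = 0.805 in epithelium.

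The comparison of dorsal with breast plumes puts the narrow vane against the wide one in body feathers, and here many members were called. In pulp, FGF10 was lower by the widest margin of all members, and the receptors FGFR4, FGFRL1 and FGFR3, the inhibitors SPRY3 and SPRY4, the factor ETV4, FGF9, FGF12, FGFBP1 and 8 phosphatases were lower with it in dorsal plumes. FGF14 and DUSP19 were higher. Of 46 members tested, 18 were lower and 2 higher in dorsal pulp, against 15.2% and 13.0% of all genes. In either direction this was 43.5% of the members, against 28.2% of all genes, and the median log2 fold change was -0.30 over the members tested and -0.06 over all genes tested. With the batch as a block 19 members were called (30.6% of all genes). Without 1 dorsal pulp library the fit called 12 members (without batch I; 26.1%, against 15.7% of all genes) or 13 (without batch II; 28.3% against 18.9%). Quantile normalization called 5 members higher and 18 lower (15.9% and 16.4% of all genes). The weakest calls were DUSP5, made in 6 of 17 alternative fits, and FGFR3, made in 10.

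FGF10 had 3.28 and 3.71 TPM in dorsal pulp against 32.4 and 28.9 TPM in breast pulp. The dorsal libraries were far below the breast ones, and the mean of 3.50 ± 0.307 TPM in dorsal pulp was 8.78-fold lower than that of 30.7 ± 2.48 TPM in breast pulp (SD, n = 2 libraries each; log2 fold change -2.82, SE 0.19, adjusted p = 2.25e-05, limma). It was called in every one of 17 alternative fits, with adjusted p-values up to 0.0173. FGF7, its relative in the same tissue, had 51.8 and 46.5 TPM in dorsal against 59.1 and 44.3 TPM in breast pulp, where the libraries overlapped (log2 fold change -0.06, SE 0.17, adjusted p = 0.834). The 2 mesenchymal ligands thus differed between the tracts to unlike extents, but the difference between the genes was not tested. FGF9 had 0.917 and 0.759 TPM in dorsal against 1.97 and 2.86 TPM in breast pulp (log2 fold change -0.88, SE 0.20, adjusted p = 0.0111). FGF12 had 18.3 and 16.8 TPM in dorsal against 37.9 and 32.8 TPM in breast pulp (log2 fold change -0.97, SE 0.14, adjusted p = 0.00153), while FGF14, of the same intracellular class, had 5.62 and 5.89 TPM in dorsal against 2.43 and 1.90 TPM in breast pulp (log2 fold change 1.10, SE 0.17, adjusted p = 0.00163). The call for FGF14 was lost with a pseudocount of 0.1 TPM in place of 1 (adjusted p = 0.0786).

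**Figure D3:**
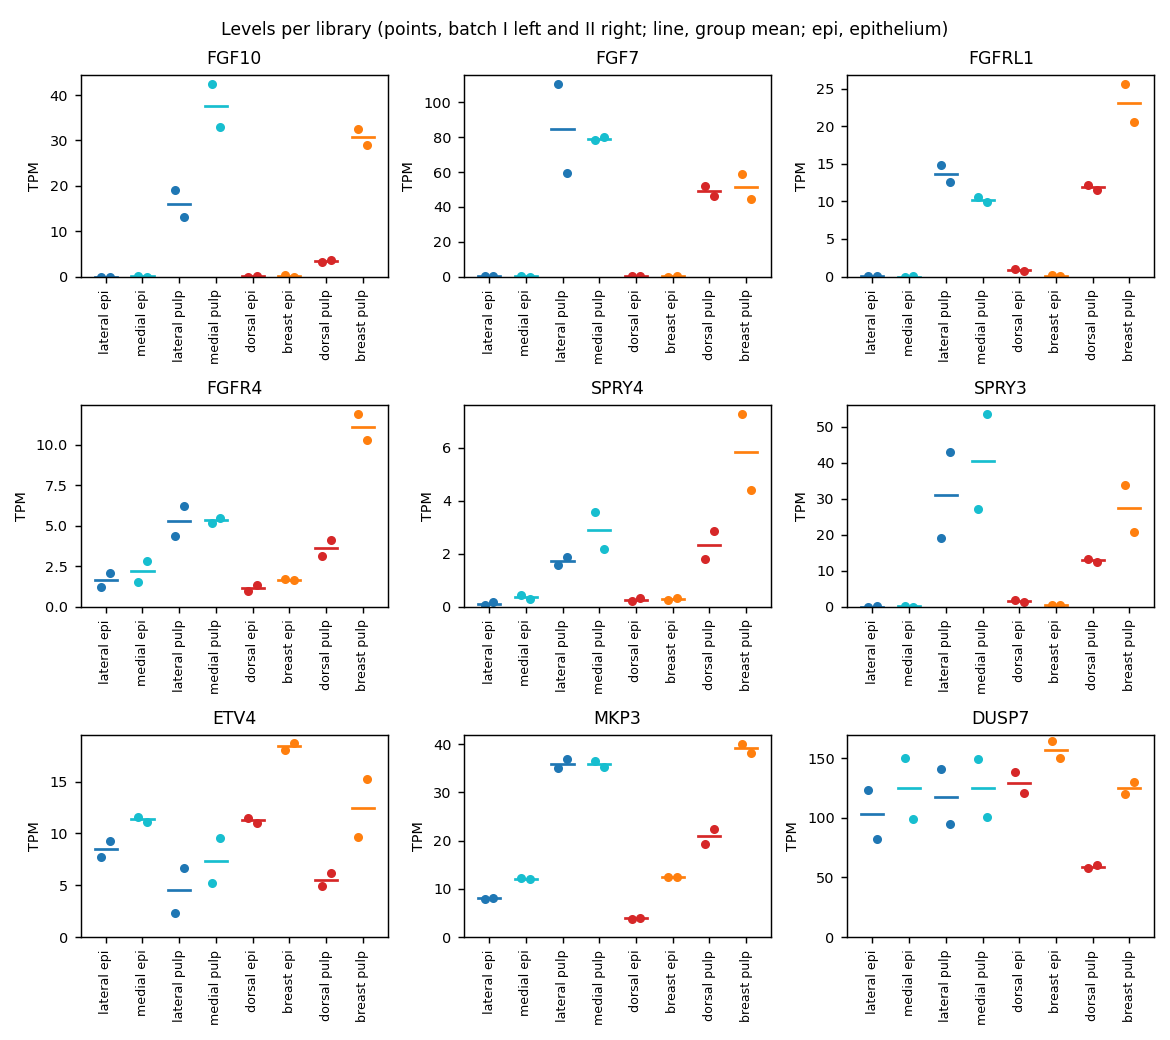
TPM per library for 9 genes in the 8 groups, with points for the libraries (batch I left, batch II right) and a line at the group mean, on linear axes that start at 0. FGF10 and SPRY4 lie lower in lateral than in medial pulp and, as called, in dorsal than in breast pulp, with no overlap in either, while FGF7 overlaps between the sides in both.

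Among the receptors, FGFR4 had 3.10 and 4.09 TPM in dorsal against 11.9 and 10.3 TPM in breast pulp (log2 fold change -1.40, SE 0.17, adjusted p = 5.59e-04). FGFRL1 had 12.2 and 11.6 TPM in dorsal against 25.6 and 20.5 TPM in breast pulp (log2 fold change -0.89, SE 0.16, adjusted p = 0.00423). FGFR3 had 73.8 and 73.4 TPM in dorsal against 102 and 103 TPM in breast pulp (log2 fold change -0.47, SE 0.13, adjusted p = 0.0307). Each of these 3 was lower in both dorsal libraries than in both breast libraries. FGFR1 (42.7 and 54 TPM in dorsal against 39.9 and 38.6 TPM in breast pulp) and FGFR2 (121 and 117 TPM in dorsal against 103 and 103 TPM in breast pulp) had higher dorsal values that were not called, with log2 fold changes of 0.29 (SE 0.15) and 0.21 (SE 0.12). FGFBP1 had 31.4 and 32.1 TPM in dorsal against 69.1 and 77.7 TPM in breast pulp, 2.31-fold lower (log2 fold change -1.18, SE 0.09, adjusted p = 4.46e-05).

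Of the Sprouty and Spred genes, SPRY4 and SPRY3 were lower in dorsal pulp and the other 4 were not called. SPRY4 had 1.81 and 2.85 TPM in dorsal against 7.27 and 4.41 TPM in breast pulp (log2 fold change -1.02, SE 0.24, adjusted p = 0.0130). SPRY3 had 13.2 and 12.5 TPM in dorsal against 33.9 and 20.8 TPM in breast pulp (log2 fold change -0.99, SE 0.22, adjusted p = 0.0121). SPRY1 (13.3 and 14.4 TPM in dorsal against 14.4 and 14.5 TPM in breast pulp) and SPRY2 (24.6 and 27.1 TPM in dorsal against 20.1 and 18.3 TPM in breast pulp) were not called, with log2 fold changes of -0.06 (SE 0.13) and 0.41 (SE 0.17). The class as a whole had a median log2 fold change of 0.02. ETV4, a target of ERK signalling, had 4.94 and 6.14 TPM in dorsal against 9.70 and 15.2 TPM in breast pulp (log2 fold change -1.02, SE 0.20, adjusted p = 0.00602), while ETV5 had 16.2 and 21.4 TPM in dorsal against 15.3 and 17.5 TPM in breast pulp and was not called (log2 fold change 0.18, SE 0.16, adjusted p = 0.431). The 2 factors that are often read together as ERK targets did not both pass the test here.

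Of the 18 phosphatases tested in plumes, 8 were lower and 1 was higher in dorsal pulp, against 15.2% and 13.0% of all genes. DUSP7, a cytoplasmic phosphatase selective for ERK, had 57.9 and 60.4 TPM in dorsal against 119.7 and 129.8 TPM in breast pulp, 2.11-fold lower (log2 fold change -1.06, SE 0.10, adjusted p = 1.02e-04). MKP3, of the same group but outside the name rule, had 19.3 and 22.5 TPM in dorsal against 40.1 and 38.1 TPM in breast pulp (log2 fold change -0.88, SE 0.12, adjusted p = 0.00110). DUSP7 and MKP3 were thus lower in both dorsal libraries than in both breast libraries. DUSP4 had 4.48 and 6.62 TPM in dorsal against 8.56 and 11.4 TPM in breast pulp (log2 fold change -0.75, SE 0.19, adjusted p = 0.0197). DUSP5, a nuclear ERK phosphatase, had 4.07 and 5.14 TPM in dorsal against 7.07 and 6.86 TPM in breast pulp (log2 fold change -0.51, SE 0.16, adjusted p = 0.0483), and its call was lost when batch was blocked (adjusted p = 0.0596). Among the phosphatases of JNK and p38, DUSP16 had 3.98 and 4.98 TPM in dorsal against 8.35 and 11 TPM in breast pulp (log2 fold change -0.96, SE 0.16, adjusted p = 0.00300), and DUSP8 had 4.46 and 4.06 TPM in dorsal against 6.59 and 8.26 TPM in breast pulp (log2 fold change -0.67, SE 0.14, adjusted p = 0.00814). DUSP10, of the same group, had 33.7 and 36.9 TPM in dorsal against 37.6 and 32.9 TPM in breast pulp with overlapping libraries (log2 fold change 0.00, SE 0.15).

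Of the atypical phosphatases, DUSP14 had 47.0 and 47.9 TPM in dorsal against 68.3 and 79.8 TPM in breast pulp (log2 fold change -0.63, SE 0.10, adjusted p = 0.00255). DUSP3 had 18.5 and 16 TPM in dorsal against 26.6 and 26.9 TPM in breast pulp (log2 fold change -0.61, SE 0.14, adjusted p = 0.0144), and DUSP22 had 47.5 and 54.1 TPM in dorsal against 70.1 and 64.5 TPM in breast pulp (log2 fold change -0.40, SE 0.10, adjusted p = 0.0176). These 3 were lower in dorsal pulp, whereas DUSP19 was higher, with 44.2 and 49.5 TPM in dorsal against 34.7 and 32.8 TPM in breast pulp (log2 fold change 0.46, SE 0.11, adjusted p = 0.0176). DUSP1 was not called, with 4.00 and 3.96 TPM in dorsal against 3.73 and 6.56 TPM in breast pulp.

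The 18 members lower in dorsal pulp were not of one tissue. In plumes 8 of them (DUSP14, DUSP16, DUSP4, DUSP7, DUSP8, ETV4, FGFBP1 and FGFR3) were higher in epithelium than in pulp, 9 (DUSP22, DUSP3, DUSP5, FGF10, FGF12, FGFR4, FGFRL1, SPRY3 and SPRY4) were lower in epithelium, and FGF9 was not called. Over all genes tested, 30.2% were higher and 47.0% lower in plume epithelium. The split among all genes lower in dorsal pulp was not counted. Summed keratinocyte markers in the pulp were 1087 and 1413 TPM in dorsal against 944 and 1587 TPM in breast plumes, with 1 of 13 markers higher and 2 lower. Of the 13, 10 had a log2 fold change under 0, and with the batch block 1 was called higher and 4 lower. Summed endothelial markers were 593 and 634 TPM in dorsal against 920.1 and 701 TPM in breast pulp (0 of 10 higher, 4 lower). Without overlap, 9 of these were lower and 1 higher. Leukocyte markers summed to 1509 and 1596 TPM in dorsal against 2908 and 2447 TPM in breast pulp (0 of 8 higher, 2 lower, and all 8 lower without overlap). Smooth muscle or pericyte markers summed to 151 and 168 TPM in dorsal against 296 and 217 TPM in breast pulp (0 of 4 higher, 2 lower). Erythroid markers summed to 836 and 938 TPM in dorsal against 1348 and 1080.1 TPM in breast pulp (0 of 3 higher, 0 lower, and all 3 without overlap). Fibroblast or mesenchymal markers summed to 23867 and 23247 TPM in dorsal against 23555 and 19219 TPM in breast pulp (3 of 14 higher, 0 lower). None of these marker genes was at 0 in both libraries of either group. Their part in the members' differences was not tested.

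In plume epithelium the members went both ways. FGFBP2, SPRED2, SPRY3, FGFRL1, DUSP10, FGFR3 and DUSP14 were higher in dorsal epithelium, and FGF16, DUSP4, DUSP16, DUSP1, SPRY1, DUSP12 and DUSP22 were lower. These were 7 of 46 higher and 7 lower, against 8.55% and 9.10% of all genes, and in either direction 30.4% of the members against 17.6% of all genes. The counts rest on few libraries. Without breast epithelium batch I, 3 members were called (6.52%, against 6.42% of all genes), and 3 without breast epithelium batch II (6.52% against 6.25%), so the members' share was then that of all genes. The fit called 4 members without dorsal epithelium batch II (8.7% against 14.4%), 8 without dorsal epithelium batch I (17.4% against 15.3%) and 9 without each dorsal pulp library in turn (19.6% against 13.5%). The batch block gave 16 members (19.8% of all genes). On the RPKM as deposited, 4 of 38 members tested were higher and 8 lower, where 8.22% and 14.4% of all genes were. Of the 17 alternative fits, SPRY3, DUSP10, DUSP1 and FGFR3 were each called in 8, DUSP14 in 10, DUSP12 in 11 and FGFRL1 in 12.

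FGFBP2, a secreted relative of FGFBP1, differed most, with 89.0 and 74.9 TPM in dorsal against 23.3 and 18.5 TPM in breast epithelium, 3.93-fold higher (log2 fold change 1.93, SE 0.17, adjusted p = 2.67e-04). FGFBP2 was called in all 17 alternative fits, with adjusted p-values up to 0.00686. SPRED2 had 55.4 and 42.7 TPM in dorsal against 22.6 and 21.2 TPM in breast epithelium (log2 fold change 1.12, SE 0.14, adjusted p = 0.00134). SPRED2 too was called in all 17 alternatives. FGFR3 had 186 and 135 TPM in dorsal against 115 and 115 TPM in breast epithelium (log2 fold change 0.45, SE 0.13, adjusted p = 0.0495). FGFRL1 had 1.04 and 0.805 TPM in dorsal against 0.175 and 0.107 TPM in breast epithelium (log2 fold change 0.75, SE 0.16, adjusted p = 0.0152), and SPRY3 1.98 and 1.47 TPM in dorsal against 0.401 and 0.543 TPM in breast epithelium (log2 fold change 0.88, SE 0.22, adjusted p = 0.0290). Both dorsal and breast means of FGFRL1 and the breast mean of SPRY3 were under 1 TPM, and FGFRL1 entered the test only through the pulp. DUSP14 had 468 and 548 TPM in dorsal against 389 and 382 TPM in breast epithelium (log2 fold change 0.39, SE 0.10, adjusted p = 0.0333), and DUSP10 10.7 and 9.45 TPM in dorsal against 7.44 and 5.57 TPM in breast epithelium (log2 fold change 0.57, SE 0.15, adjusted p = 0.0356).

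On the lower side, DUSP16 had 15.6 and 13.9 TPM in dorsal against 28.0 and 27.7 TPM in breast epithelium (log2 fold change -0.88, SE 0.16, adjusted p = 0.00799). DUSP4 had 12.2 and 11.6 TPM in dorsal against 22.0 and 24.1 TPM in breast epithelium (log2 fold change -0.90, SE 0.19, adjusted p = 0.0141), and DUSP1 25.0 and 22.7 TPM in dorsal against 39.5 and 41.6 TPM in breast epithelium (log2 fold change -0.74, SE 0.20, adjusted p = 0.0384). Both are inducible nuclear phosphatases, and DUSP1 was called in 8 of 17 alternative fits. SPRY1 had 8.23 and 7.19 TPM in dorsal against 12.2 and 11.3 TPM in breast epithelium (log2 fold change -0.55, SE 0.13, adjusted p = 0.0198). DUSP12 had 16.3 and 15.9 TPM in dorsal against 21.8 and 23.9 TPM in breast epithelium (log2 fold change -0.48, SE 0.13, adjusted p = 0.0324), and DUSP22 30.8 and 29.9 TPM in dorsal against 42.0 and 40.8 TPM in breast epithelium (log2 fold change -0.44, SE 0.10, adjusted p = 0.0184). FGF16, the one ligand called in epithelium, had 1.01 and 0.573 TPM in dorsal against 3.24 and 2.13 TPM in breast epithelium (log2 fold change -1.04, SE 0.21, adjusted p = 0.0112). ETV4 had 11.4 and 11 TPM in dorsal against 18.1 and 18.7 TPM in breast epithelium and was called lower only when batch was blocked (adjusted p = 0.0379, against 0.0527 without it). ETV5 had 11.5 and 12.2 TPM in dorsal against 8.37 and 7.75 TPM in breast epithelium and was called higher only with the block (0.0475 against 0.0578). MKP3 had 3.77 and 4.04 TPM in dorsal against 12.4 and 12.5 TPM in breast epithelium, 3.19-fold lower (log2 fold change -1.46, SE 0.12, adjusted p = 2.19e-04). It was called in all 17 alternatives. Summed keratinocyte markers were 6789 and 6804 TPM in dorsal against 4971 and 4961 TPM in breast epithelium (3 of 13 higher, 0 lower), and fibroblast or mesenchymal markers 339.8 and 177 TPM in dorsal against 247 and 217 TPM in breast epithelium (1 of 14 higher, 0 lower). Summed melanocyte markers were 409.9 and 319.9 TPM in dorsal against 162 and 191 TPM in breast epithelium (5 of 8 higher, 1 lower). The part of these cell types in the members' differences was not tested.

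**Figure D4:**
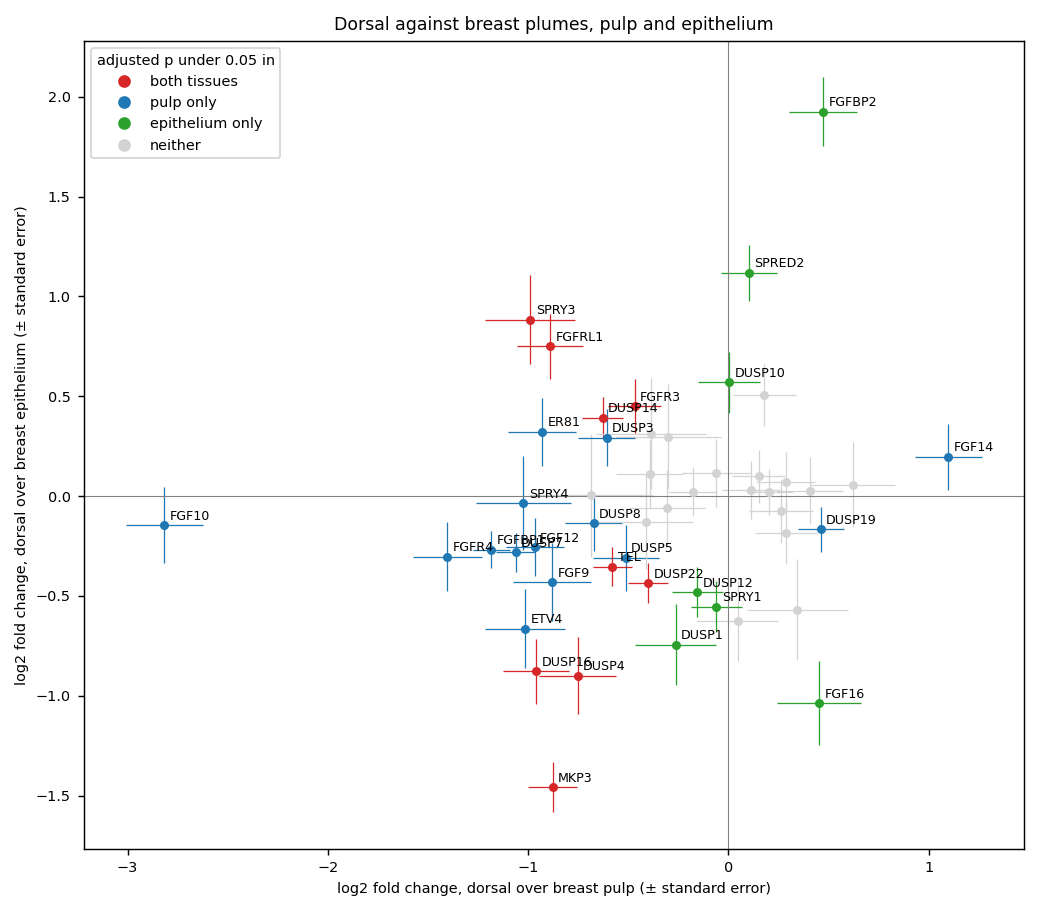
Log2 fold change of dorsal over breast plumes in pulp (horizontal) and in epithelium (vertical), with standard errors, for the members tested in plumes and for MKP3, ER81 and TEL; colours mark the tissues in which the gene was called. FGF10 lies far to the left (-2.82 in pulp), FGFBP2 at the top (1.93 in epithelium), and FGFRL1, SPRY3, FGFR3 and DUSP14 lie upper left, lower in dorsal pulp and higher in dorsal epithelium.

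Pulp and epithelium thus differed in how the tracts compared. DUSP14, FGFR3, FGFRL1 and SPRY3 were called in both plume tissues in opposite directions, lower in dorsal pulp and higher in dorsal epithelium (FGFRL1 and SPRY3 at epithelium levels under 2 TPM), and DUSP16, DUSP22 and DUSP4 were lower in both. How many of all genes did so was not counted. FGFR3 in both tissues, and DUSP14, FGFRL1 and SPRY3 in epithelium, lost their calls in some alternative fits. The difference of the tract contrast between pulp and epithelium was itself called in 15 of 46 members (32.6%, against 22.7% of all genes), with 3 positive and 12 negative values, where 11.0% and 11.7% of all genes were called. The batch block gave 15 members as well (24.8% of all genes). The most negative were FGF10 (difference of log2 fold changes -2.67, SE 0.27, adjusted p = 3.85e-04, and 0.119 with a pseudocount of 0.1 TPM), SPRY3 (-1.87, SE 0.32, adjusted p = 0.00422) and FGFRL1 (-1.64, SE 0.23, adjusted p = 0.00173). FGF10 had at most 0.376 TPM in plume epithelium, where the added 1 TPM holds its difference near 0. Its value thus mostly repeats the pulp difference. For the difference between the tissues, 12 of 13 keratinocyte markers were under 0 (0 called positive, 3 negative), with a median of -0.69. Over the members tested the median was -0.27, and over all genes -0.02. Endothelial markers were under 0 in 8 of 10, and fibroblast or mesenchymal markers in 7 of 14. The part of these cell types in the members' values was not tested. In remiges the same difference between tissues was called in 0 of 40 members (limma; 2 at an unadjusted p under 0.05, and 0 called with the batch block), against 0% of all genes.

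Some members went the same way in the narrow-vaned side of both feather types. In pulp, 7 of the 40 members tested in both (17.5%) were lower in both lateral libraries than in both medial ones and lower in both dorsal libraries than in both breast ones, where 6.07% of all genes were: DUSP22, DUSP4, FGF10, FGF12, FGF9, SPRY1 and SPRY4. Only FGFBP2 (2.5% of the members, against 3.76% of all genes) was higher in this way. None of these passed the test in remiges, and SPRY1 and FGFBP2 passed it in pulp in neither. FGF10 was listed by the study for a shared direction in these libraries, so its place here is not independent evidence. In epithelium DUSP4, ETV4 and FGFBP1 were lower in both (7.5%, against 7.34% of all genes) and DUSP14, FGFRL1 and SPRED2 higher in both (7.5%, against 5.58%), so the epithelium counts were near the background. FGFRL1 had at most 0.0543 TPM in remige epithelium and entered the test through the pulp, so its order there is between values close to 0.

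Beyond the members, 59 other genes of FGF signalling were tested in remiges and 61 in plumes (co-receptors, heparan sulfate genes, adaptors, the RAS-ERK cascade and early ERK targets). Between the lateral and the medial side 0 were called by limma, with 2 in pulp and 1 in epithelium at an unadjusted p under 0.05 and 0 under the batch block. In dorsal against breast pulp 14 of 61 were higher and 9 lower (13.0% and 15.2% of all genes), and in epithelium 9 were higher and 5 lower (8.55% and 9.10% of all genes), so that this list, unlike the members in pulp, leaned to neither side by its median (0.02 in pulp, 0.00 in epithelium on the log2 scale, without a test). The genes named next were picked from these calls after their values were seen. SULF1, a sulfatase that trims heparan sulfate, had 1.80 and 1.55 TPM in dorsal against 10.1 and 10.5 TPM in breast pulp (log2 fold change -2.08, SE 0.18, adjusted p = 7.99e-05), while its relative SULF2 had 124 and 144 TPM in dorsal against 85.2 and 80.3 TPM in breast pulp (log2 fold change 0.68, SE 0.11, adjusted p = 0.00194). The glypican GPC3 had 387 and 367 TPM in dorsal against 819.8 and 725 TPM in breast pulp (log2 fold change -1.03, SE 0.18, adjusted p = 0.00387), while GPC5 had 18.2 and 16.9 TPM in dorsal against 3.73 and 3.44 TPM in breast pulp (log2 fold change 2.02, SE 0.15, adjusted p = 3.31e-05). Close relatives thus went opposite ways. KAL1, which encodes anosmin, an extracellular modulator of FGF receptors, had 45.0 and 39.9 TPM in dorsal against 13.0 and 7.78 TPM in breast pulp (log2 fold change 1.97, SE 0.26, adjusted p = 7.76e-04), and IL17RD, a membrane inhibitor of FGF signalling, had 14.6 and 14.4 TPM in dorsal against 10.7 and 9.10 TPM in breast pulp (log2 fold change 0.51, SE 0.14, adjusted p = 0.0270). ER81 (ETV1, by the RefSeq synonyms), the third factor of the ETV4 group, had 8.79 and 9.89 TPM in dorsal against 21.5 and 16.2 TPM in breast pulp (log2 fold change -0.93, SE 0.17, adjusted p = 0.00424).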

How the data were processed

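Lateral and medial primary remiges and dorsal and breast plumes were each sequenced as epithelium and pulp, with 2 libraries per group (4 μg of RNA, 50 bp single-end reads). Trimming, mapping to galGal4 and quantification were done by the authors in Partek software; TopHat2 is also named in the submitters' processing notes, and versions, annotation, strand and the handling of reads with several positions are not given in the sources used here. The deposited values are RPKM (reads per gene, divided by its length and by the library's reads) in 1 table per feather type, together with the deposited count of alignments per library. Libraries are rows and genes are columns in these tables. Every row was matched to a sample by its name, and 0 were left unmatched.

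RPKM were rescaled per library to TPM. limma 3.58.1 (R 4.3.3; lmFit, contrasts.fit and eBayes with a trend) was fitted to log2(TPM + 1) as 4 group means in each table. Genes whose mean reached 1 TPM in a group entered, with Benjamini-Hochberg adjustment over all of them. The fit was tested on simulated data whose noise was independent between libraries, so the batch differences shared by the remige groups were not represented. Tables and figures were made with Python 3.11.15, pandas 2.3.3 and matplotlib 3.10.9. The members and lists were chosen with earlier results of these data known. Values per library were given for members that reached 5 TPM on average in a group and passed a narrow against wide comparison, for a preset set (FGF10, FGF20, BFGF, 4 receptors, 3 Sprouty genes, MKP3, ETV4 and ETV5) and, per library or by range, for the 5 largest changes per direction between epithelium and pulp. FGF16 and the genes named from the wider pathway list were chosen after their values were seen. The labels give the batch for every library. Batch differences of 2 groups correlated across genes with r = 0.446 to 0.805 in remiges and 0.004 to 0.117 in plumes. The groups thus shared batch differences in remiges and hardly any in plumes. Symbols were checked against RefSeq names (GRCg7b), and no coordinates or sequences were used. A result on 1 further marker list is not reported here.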

Additional observations from a re-analysis of the deposited data

Results flagged for a closer look

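In plumes the difference between dorsal and breast feathers was not the same in pulp as in epithelium for 15 members, by limma's test of the difference itself (dorsal minus breast in pulp, minus dorsal minus breast in epithelium, on the log2 scale). FGF10 had a value of -2.67 (adjusted p = 3.85e-04), and lost its call with a pseudocount of 0.1 TPM (adjusted p = 0.119); its epithelium values lie at or near 0. The receptors FGFRL1 (-1.64, adjusted p = 0.00173), FGFR4 (-1.10, adjusted p = 0.0136) and FGFR3 (-0.92, adjusted p = 0.00952) were negative as well. So were the binding proteins FGFBP1 (-0.91, adjusted p = 0.00177) and FGFBP2 (-1.45, adjusted p = 0.00387), and the inhibitors SPRY3 (-1.87, adjusted p = 0.00422) and SPRED2 (-1.02, adjusted p = 0.00796). Of the phosphatases, DUSP14 (-1.02, adjusted p = 0.00191), DUSP3 (-0.90, adjusted p = 0.0142) and DUSP7 (-0.78, adjusted p = 0.00472) were negative and DUSP19 (0.63, adjusted p = 0.0248) was positive. The remaining ones were FGF12 (-0.71, adjusted p = 0.0379), FGF14 (0.90, adjusted p = 0.0261) and FGF16 (1.49, adjusted p = 0.00841). FGF14 had 0.161 and 0.304 TPM in dorsal and 0.152 and 0 TPM in breast epithelium. At such levels the added 1 TPM holds the epithelium difference near 0, so the values of FGF10 and FGF14 mostly repeat the pulp difference. FGFBP2 and SPRED2 were higher in dorsal than in breast epithelium, and neither was called in pulp. Of 13 keratinocyte markers, 12 had a negative value of the same difference (3 called). Their part in the members' values was not tested. No group has more than 2 libraries, so single libraries that stand apart were not looked for.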

How the results depend on the processing

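Over 133 results and 2242 refits (pseudocounts of 0.1 and 5 TPM, no filter or a filter of 5 TPM, RPKM as deposited, equal upper quartiles, quantile normalization, a replicate block for the batch, robust eBayes, and each library left out), 2039 kept their direction and their side of the threshold, 195 kept the direction but lost the call, and 8 changed direction, all of them under quantile normalization of epithelium against pulp. These were FGF18 (0.56), FGFR4 (0.0033) and SPRY1 (0.27) in remiges, and BFGF (0.28), DUSP15 (0.0726), DUSP5 (0.47), ETV7 (0.18) and FGF18 (0.42) in plumes, as log2 fold changes; the cause was not tested. With no filter, 9 members were called between dorsal and breast epithelium (17%, against 13.3% of all genes), and 14 with it (30.4% against 17.6%). With each library left out in turn, members called ranged over 12 to 20 in dorsal against breast pulp, 3 to 13 in dorsal against breast epithelium, 26 to 30 in remige and 37 to 39 in plume epithelium against pulp, and 10 to 16 for the difference between the plume tissues, and stayed at 0 in the remige side comparisons. With the replicate block, members called were 19 in dorsal against breast pulp (DUSP5 lost), 16 in epithelium (ETV4 and ETV5 gained), 33 in remige epithelium against pulp (DUSP15, ETV4 and FGF16 gained), 40 in plume epithelium against pulp (DUSP13 gained), and 15 for the difference between the plume tissues, and no other call of a member in these comparisons changed. Leaving out a library leaves its group with 1, which is then assumed to vary like the other groups. The pools of 3 or 25 follicles give 2 values per group, and the depth limits what can be said of members under 1 TPM.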
